A study of Homo sapiens with 24 samples.

Results

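The ERK feedback genes examined here are 10 genes that restrain the MAP kinase pathways: the dual-specificity phosphatases DUSP1, DUSP2, DUSP4, DUSP5, DUSP6 and DUSP10, and the Sprouty family genes SPRY1, SPRY2, SPRED1 and SPRED2. They were taken by symbol from 2 tables in which the authors compared PRKCQ knockdown with control cells, and are 10 of 58780 genes listed. All 10 had a value in the TPA table and 8 in the DMSO table; DUSP1 and SPRY2 in DMSO are not analysed here. The libraries were 24 in number, 3 for each of 8 groups: shPRKCQ TPA, NTC TPA, shPRKCQ DMSO and NTC DMSO cells of each of the lines MyLa and HuT 78. MyLa is a cutaneous T cell lymphoma line labelled mycosis fungoides, and HuT 78 one labelled Sézary syndrome. NTC is a non-targeting control, and shPRKCQ is a short hairpin RNA against PRKCQ. TPA, a phorbol ester and direct activator of protein kinase C, was given at 10 ng/ml for 24 h, and DMSO is its vehicle. For the knockdown, the cells had been in doxycycline at 1 µg/ml for at least 72 h. Whether NTC cells also received doxycycline, and whether the cells were clones or pools, is not given in the sources used here, so drug and hairpin effects cannot be told apart.

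ERK is the last kinase of a cascade that runs from Ras through Raf and MEK, and in T cells it is switched on by the T cell receptor and by phorbol esters through protein kinase C and Ras exchange factors. Active ERK induces genes that then restrain it. The dual-specificity phosphatases remove the phosphates from the activating threonine and tyrosine of MAP kinases, some in the nucleus and some in the cytoplasm. Sprouty and SPRED proteins act further up, between the receptor, Ras and Raf. Levels of these transcripts are therefore often read as a trace of recent ERK activity. Levels in TPA cells were not compared with those in DMSO cells here. Whether TPA had raised these transcripts or ERK activity at 24 h was therefore not tested. PRKCQ encodes protein kinase C theta, the isoform recruited to the T cell receptor contact.

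In each comparison 6 shPRKCQ libraries stood against 6 NTC libraries, both lines together, and each gene has a log2 fold change with its unadjusted and adjusted p, as deposited. No value per library was used, so levels, depth and the spread between replicates are not shown, and the lines cannot be told apart. The tables do not state which group is on top of the ratio. Negative values were read as lower in the knockdown, since PRKCQ was at -2.08 in TPA and -2.11 in DMSO in the authors' deposited tables, or 23.7% and 23.1% of the NTC level. The threshold for a call was an adjusted p of 0.05 over all genes of a table. A standard error was computed from each fold change and its p-value, and intervals are 95% intervals from it. In bulk RNA, fewer cells of a type and less RNA per cell cannot be told apart. All 7 T cell markers in the list used had a p-value in the TPA table and 3 in the DMSO table. Of 9 markers of B, myeloid, epithelial and stromal cells, 9 and 2 had one. Since the tables give no levels, these counts do not check the cell type. No T cell marker was called in either treatment. Their median log2 fold change was 0.13 in TPA, with 6 positive and 1 negative, and -0.056 in DMSO, with 1 positive and 2 negative. The smallest unadjusted p was that of CD5, at 0.56 in the authors' deposited TPA table (unadjusted p = 0.0167, adjusted p = 0.978). The part of CD5 in the values of the ERK feedback genes was not tested.

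None of the ERK feedback genes was called in TPA (0 of 10) or in DMSO (0 of 8). Of all genes with an adjusted p, 0.113% in TPA and 0.108% in DMSO were called. At an unadjusted p under 0.05 the counts were also 0 of 10 and 0 of 8, where 3.99% and 3.04% of all genes with an adjusted p passed. In the authors' deposited tables the adjusted p was 1.00 for each of these genes in both treatments. In TPA 7 were above and 3 below the NTC level, with a median log2 fold change of 0.076, where the median of all genes with an adjusted p was 0.011. In DMSO 3 were above and 5 below, with a median of -0.20 against 0.0075 for all genes. The values ran between -0.39 and 0.47 in TPA and between -0.41 and 0.25 in DMSO in the authors' deposited tables. No value, with both lines together, reached a doubling or a halving. Intervals of DUSP2 and SPRY2 in TPA and of DUSP6 and SPRY1 in DMSO did reach one. A rescaling of z by its robust SD over every gene of the TPA table with a p-value called DUSP2 and DUSP4 among 2383 genes, and the same rescaling over genes with an adjusted p called 0 of the 10.

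**Figure D1:**
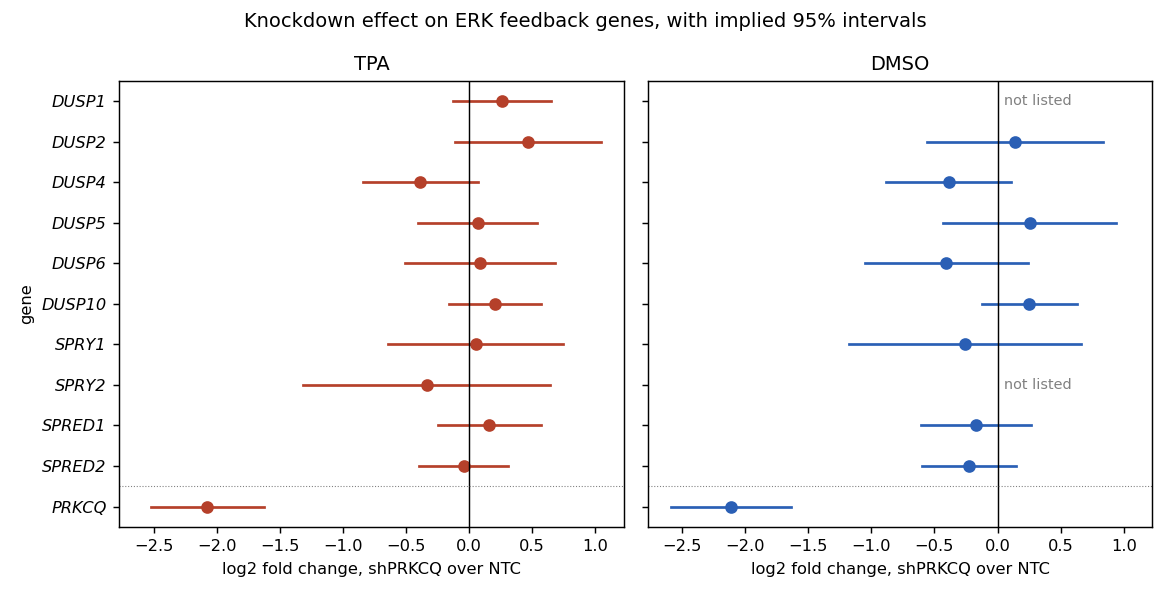
Log2 fold change of shPRKCQ over NTC cells (x axis) for the ERK feedback genes and PRKCQ (y axis), in TPA on the left and DMSO on the right. Points are the authors' deposited values and lines the 95% intervals computed from their p-values. All 10 intervals in TPA and all 8 in DMSO include 0, while PRKCQ lies near -2.08 and -2.11.

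Among the nuclear phosphatases, which are the classical immediate early members, the values went both ways. DUSP2 is a phosphatase of activated lymphocytes that acts on ERK in the nucleus. It had the highest TPA value, at 0.47 in the authors' deposited table, or 138% of the NTC level with an interval of 92.7% to 206% (unadjusted p = 0.112). Its DMSO value in the authors' deposited table was 0.14, or 110.2% with an interval of 67.9% to 179% (unadjusted p = 0.694). In TPA 7.44% of all genes with an adjusted p had a larger absolute fold change than DUSP2, and in DMSO 30.2% had.

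DUSP4, a nuclear phosphatase of ERK and other MAP kinases, was the one whose values were most alike in both treatments. The authors' deposited tables had it at -0.39 in TPA and -0.39 in DMSO, 76.5% of the NTC level each (unadjusted p = 0.0970 and 0.127). Its intervals were 55.7% to 105% in TPA and 54.3% to 108% in DMSO. Of all genes with an adjusted p, 7.18% in TPA and 7.11% in DMSO had a smaller p than DUSP4. These were the smallest unadjusted p-values of the 10 genes in each treatment, and neither passed.

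DUSP1, the stress- and mitogen-induced phosphatase that acts on JNK, p38 and ERK, had a value only in TPA. It was at 0.26 in the authors' deposited table, or 119.6% of the NTC level with an interval of 91.3% to 157% (unadjusted p = 0.194). DUSP5 holds and dephosphorylates ERK in the nucleus. For it the authors' deposited tables gave 0.068 in TPA and 0.25 in DMSO (unadjusted p = 0.780 and 0.468), with intervals of 75.5% to 146% and 74.2% to 191% of the NTC level.

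DUSP6, the cytoplasmic phosphatase that is selective for ERK, had the lowest DMSO value of the set. The authors' deposited tables gave 0.085 in TPA and -0.41 in DMSO, or 106% and 75.4% of the NTC level (unadjusted p = 0.779 and 0.216). The intervals were 70.3% to 160.1% in TPA and 48.2% to 118% in DMSO. In DMSO 4.28% of all genes had a larger absolute fold change, but 12.8% had a smaller p. The other cytoplasmic ERK phosphatase with values in both was DUSP7, at -0.14 in TPA and -0.11 in DMSO in the authors' deposited tables (unadjusted p = 0.396 and 0.522).

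DUSP10 prefers JNK and p38 over ERK, and restrains JNK in T cells in the mouse. It was at 0.20 in TPA and 0.25 in DMSO in the authors' deposited tables (unadjusted p = 0.269 and 0.188), or 115% and 119% of the NTC level. Its intervals, 89.6% to 148% and 91.8% to 155%, were among the narrower ones. DUSP8 and DUSP16, phosphatases of the same JNK and p38 class and not among the 10 genes, were positive too: the authors' deposited tables gave 0.18 and 0.022 in TPA, and 0.44 and 0.32 in DMSO. Neither passed in either treatment (unadjusted p = 0.518 and 0.934 in TPA, 0.153 and 0.275 in DMSO). Of all genes with an adjusted p, 53.0% in TPA and 52.3% in DMSO were positive.

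The Sprouty family genes included the least precise values. SPRY1, an inhibitor of Ras-ERK signalling that is induced by it, was at 0.052 in TPA and -0.26 in DMSO in the authors' deposited tables (unadjusted p = 0.884 and 0.581). The intervals ran from 64.1% to 168% and from 44.2% to 158% of the NTC level. SPRY2, its close relative, was at -0.34 in the authors' deposited TPA table (unadjusted p = 0.499), with an interval of 40.2% to 156%. This was the widest on the log2 scale, with a standard error of 0.50.

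SPRED1 and SPRED2 carry an EVH1 domain and a Sprouty domain, and SPRED1 brings the Ras-inactivating protein neurofibromin to the membrane. SPRED1 was at 0.16 in TPA and -0.17 in DMSO in the authors' deposited tables (unadjusted p = 0.440 and 0.433), with intervals of 84.2% to 148% and 65.5% to 119.9% of the NTC level. SPRED2 was at -0.044 in TPA and -0.23 in DMSO in the authors' deposited tables (unadjusted p = 0.809 and 0.234). Its intervals were 75.8% to 124% and 66.0% to 111%, and its standard errors of 0.18 and 0.19 were the smallest of the set. In DMSO all 3 of these Sprouty family genes with a value were negative and in TPA 2 of 4 were, none of them called, where 6203 of 13007 and 9132 of 19417 genes with an adjusted p were negative. Among the family genes outside the set, SPRY3 was negative in DMSO, and SPRY4 and SPRED3 were positive in both treatments.

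How large a change a call needed was worked out from the standard error computed from each p-value. Since the authors' model is not known, what these errors include is not known either. Those in TPA may be too small, as described below. The set's median standard error was 0.24 in TPA and 0.29 in DMSO. The median over the 13007 genes with a p-value in both tables was 0.17 in each. Over the 19417 genes with an adjusted p in TPA, among which calls were made there, it was 0.22. The largest p of a called gene was 5.01e-05 in TPA and 5.2e-05 in DMSO. At the standard errors of these genes, reaching that p needs an absolute log2 fold change of 0.74 for SPRED2 to 2.02 for SPRY2 in TPA. In DMSO it needs 0.77 for SPRED2 to 1.89 for SPRY1. DUSP4 came closest, at 40.9% of the needed size in TPA and 37.8% in DMSO. PRKCQ, with standard errors of 0.23 and 0.24, was at 225% and 214% of it.

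**Figure D2:**
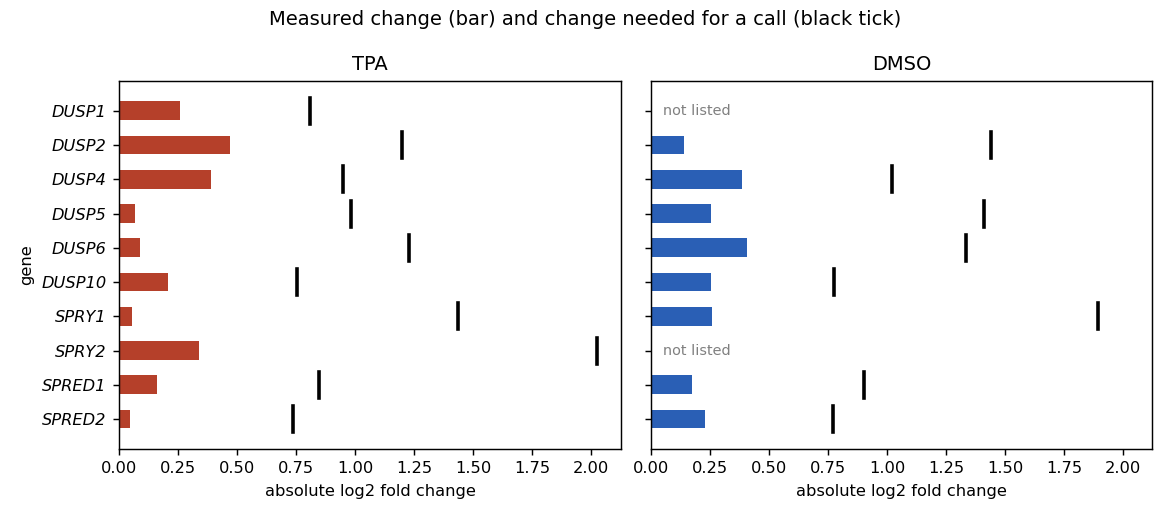
Absolute log2 fold change (x axis) of each ERK feedback gene (y axis), in TPA on the left and DMSO on the right. Bars are the measured sizes from the authors' deposited tables and black ticks the size that the largest p of a called gene would need at that gene's standard error. Each bar is at most 40.9% of its tick in TPA and 37.8% in DMSO.

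A doubling and a halving both lay outside the interval of 8 of 10 genes in TPA and 6 of 8 in DMSO. The exceptions in TPA were DUSP2, whose interval reached 206% of the NTC level, and SPRY2, whose interval went down to 40.2%. In DMSO they were DUSP6, down to 48.2%, and SPRY1, down to 44.2%. The TPA intervals may be too narrow, because fold changes of that table look shrunken towards 0: among 13007 shared genes, those with an unadjusted p under 0.8 had a standard error over 0.5 in 0.102% of cases in TPA and 2.39% in DMSO. SPRY4, a Sprouty gene outside the 10, had a fold change of 0.0034 in TPA at an unadjusted p of 0.908 and of 0.027 in DMSO at 0.965 in the authors' deposited tables, and so a far smaller standard error in TPA.

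Whether the knockdown acted on these genes differently with the phorbol ester was tested as the TPA value minus the DMSO value, with p-values adjusted over 13007 genes. None of the 8 genes with both values passed, and neither did any other gene: 0.0% were called, with 57 genes (0.438%) at an unadjusted p under 0.05, and 24 genes, none of the 8, after rescaling by the robust SD of z. The test takes the tables as independent and on 1 scale. With no differences at all, a calibrated test would put a share of about 0.05 of genes under that limit, far more than 0.438%. Its p-values therefore ran too large, and the lack of calls does not show that the effects were equal. DUSP6 had the largest difference of the 8, 0.49 on the log2 scale with an interval of -0.38 to 1.37 (unadjusted p = 0.271, adjusted p = 1.00 with Benjamini-Hochberg). SPRED1 differed by 0.34 with an interval of -0.26 to 0.93, and DUSP2 by 0.33 with -0.58 to 1.23 (unadjusted p = 0.272 and 0.478). SPRY1 differed by 0.31 and SPRED2 by 0.18, and DUSP5 by -0.19 (unadjusted p = 0.597, 0.487 and 0.661). DUSP10 and DUSP4 had differences near 0, of -0.048 with an interval of -0.57 to 0.47 and of -0.0013 with -0.68 to 0.67. Of the 8 genes 5 had the same sign in both treatments, which is 62.5%, where 64.3% of all 13007 genes had. DUSP2, DUSP5 and DUSP10 were positive in both, and DUSP4 and SPRED2 negative in both.

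**Figure D3:**
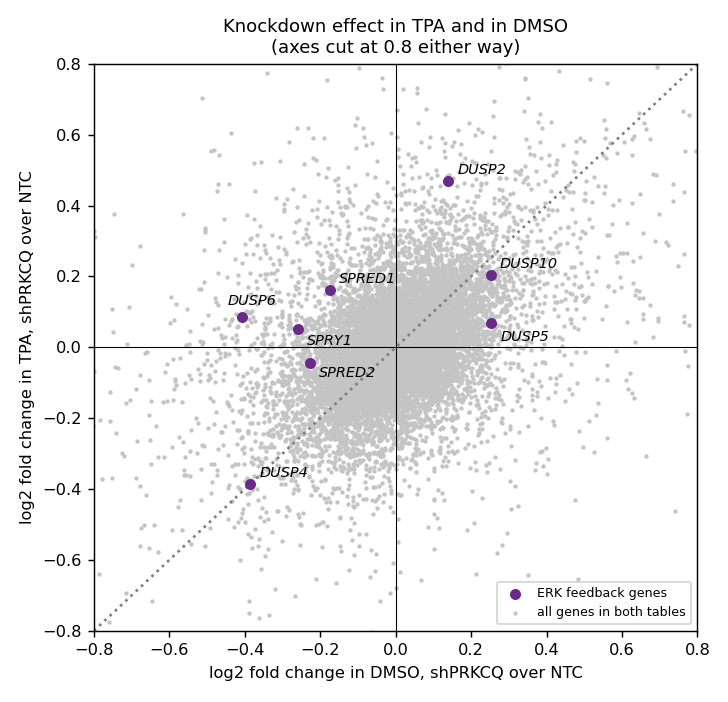
Log2 fold change of shPRKCQ over NTC in TPA (y axis) against that in DMSO (x axis), from the authors' deposited tables, for 8 ERK feedback genes in purple and all genes of both tables in grey. The axes end at 0.8 either way, which leaves 139 genes outside, and the dotted line marks equal values. DUSP4 and DUSP10 lie near that line, and DUSP6, SPRY1 and SPRED1 lie where the signs differ.

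The rest of the pathway was described from 7 gene lists. In the order of the lists below, 13, 3, 15, 8, 12, 11 and 6 genes had a p-value in TPA. In DMSO 11, 3, 15, 4, 12, 8 and 5 had one. No gene of these lists was called in either treatment, and at an unadjusted p under 0.05 there were 1 in TPA and 2 in DMSO. Of all genes with an adjusted p, 3.99% in TPA and 3.04% in DMSO passed that limit. Among 13 other dual-specificity phosphatases, DUSP12 was at -0.12 in TPA and -0.22 in DMSO (unadjusted p = 0.265 and 0.0442), and DUSP3, an atypical phosphatase of ERK and JNK, at -0.16 and -0.15 (unadjusted p = 0.365 and 0.408) in the authors' deposited tables. That list had 8 of 13 genes positive in TPA and 7 of 11 in DMSO, with medians of 0.022 and 0.075. Of the other Sprouty and SPRED genes, SPRY3 was at 0.051 and -0.35 and SPRED3 at 0.16 and 0.15 in TPA and DMSO in the authors' deposited tables (unadjusted p = 0.823 and 0.184, and 0.542 and 0.599). SPRY3 is listed under 2 identifiers with equal values, 1 for each sex chromosome, and was counted once.

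For the kinases that carry the signal no call was made. The 15 genes of the Ras-ERK cascade had medians of 0.021 in TPA and -0.031 in DMSO. KSR1, a scaffold of Raf, MEK and ERK, was at 0.14 in TPA and 0.37 in DMSO (unadjusted p = 0.438 and 0.0456), and RASGRP1, the Ras exchange factor that diacylglycerol and phorbol esters recruit, at 0.13 and -0.32 (unadjusted p = 0.587 and 0.193) in the authors' deposited tables. Among 8 genes that switch Ras off, RASA3 was at -0.77 in the authors' deposited TPA table (unadjusted p = 0.0477) and is not analysed here in DMSO. NF1, which encodes neurofibromin, was at -0.15 in TPA and -0.19 in DMSO, and DAB2IP at -0.49 in TPA in the authors' deposited tables (unadjusted p = 0.150 and 0.0703, and 0.114). RASA1 and RASAL3 were at 0.079 and 0.091 in TPA and 0.044 and 0.029 in DMSO in the authors' deposited tables. The medians of that list were 0.072 over 8 genes in TPA and 0.030 over 4 in DMSO.

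In the JNK and p38 cascade, 12 genes had medians of -0.020 in TPA and 0.0030 in DMSO, with 6 positive and 6 negative in each. MAPK13, a p38 isoform, was at -0.23 and -0.13, and MAP2K3, a kinase of p38, at 0.28 and 0.12 in TPA and DMSO in the authors' deposited tables (unadjusted p = 0.0951 and 0.335, and 0.110 and 0.501). MAPK8, which encodes JNK1, was at -0.092 in TPA and 0.11 in DMSO, and MAP2K7, a kinase of JNK, at 0.029 and 0.13 in the authors' deposited tables. MAP2K6 was at -0.27 and -0.21 and MAP3K5 at 0.038 and 0.14 in TPA and DMSO in the authors' deposited tables.

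Other transcripts that ERK induces gave no call. The 11 genes had medians of 0.030 in TPA and, over 8 of them, -0.013 in DMSO. EGR1, a zinc finger factor, was at 0.32 and 0.25 and PHLDA1 at 0.12 and 0.21 in TPA and DMSO in the authors' deposited tables (unadjusted p = 0.308 and 0.624, and 0.630 and 0.486). FOSL1, an AP-1 subunit, was at 0.010 and -0.51, and ETV4, an ETS factor, at -0.18 and -0.44 (unadjusted p = 0.959 and 0.308, and 0.770 and 0.612) in the authors' deposited tables. The receptor genes EPHA4 and EPHA2 were at 0.57 and -0.32 in the authors' deposited TPA table (unadjusted p = 0.112 and 0.313), and EPHA4 has no adjusted p there. Of 6 partners of Sprouty proteins, CAV1 was at -0.41 in TPA (unadjusted p = 0.171) and TESK1 at 0.11 and -0.069 in TPA and DMSO (unadjusted p = 0.370 and 0.583) in the authors' deposited tables. SIAH2 and CBLB, ubiquitin ligases, were at -0.074 and -0.013 in TPA and 0.061 and -0.14 in DMSO, and DYRK1A at -0.000077 and 0.055 in the authors' deposited tables.

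**Figure D4:**
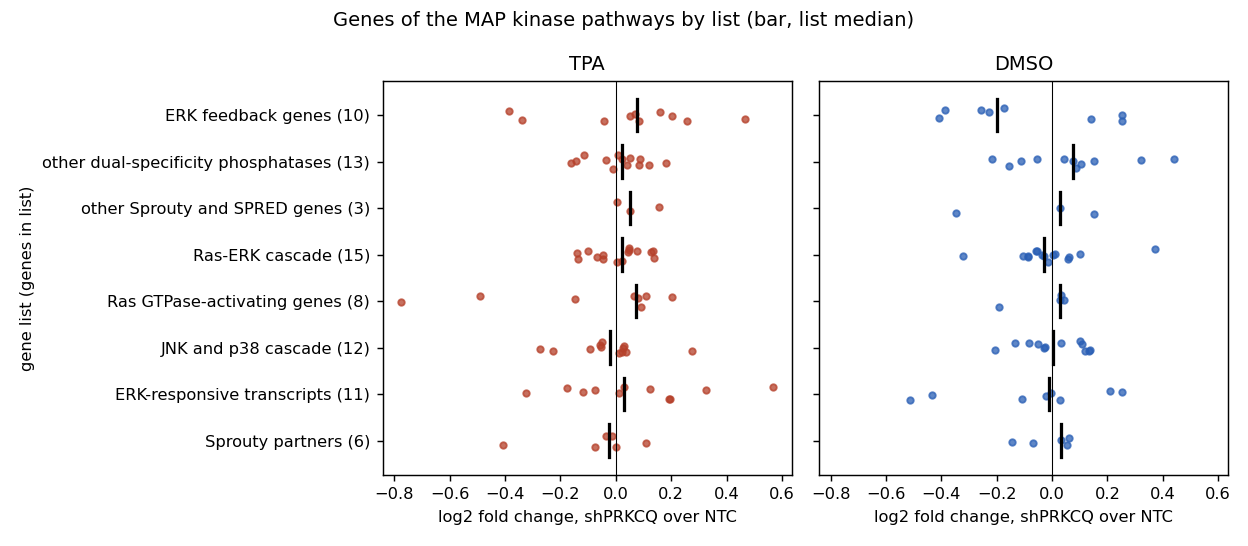
Log2 fold change of shPRKCQ over NTC (x axis) for each gene of 8 lists (y axis), in TPA on the left and DMSO on the right, from the authors' deposited tables. Points are genes and black bars the list medians; the ERK feedback genes have medians of 0.076 in TPA and -0.20 in DMSO.

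On the genome, the 10 genes lie on 9 chromosomes, with only DUSP2 and SPRED2 sharing one (chromosome 2, 96143166 to 96145440 and 65310851 to 65432637, both on the minus strand, GRCh38). In GENCODE release 29, AC022217.3 spans DUSP1 and AC024909.2 lies within DUSP6, both on the opposite strand, and AC012370.1 lies in SPRED2 on the same strand. The libraries keep the strand, but the strand setting of the counting is not given in the sources used here, so reads of these pairs may be mixed. Named for their position after values were seen, they were at 0.021, -0.46 and -0.020 in the authors' deposited TPA table (unadjusted p = 0.908, 0.255 and 0.912).

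Promoters were read from RefSeq (GRCh38.p14), as windows of 250 bases before and 50 from each start, for 8 of the 10 genes in 13 windows. No window was read for DUSP4 or DUSP5, so their promoters were not analysed here. The element that AP-1 binds after TPA treatment was searched as TGACTCA or TGAGTCA, and the cyclic AMP response element as TGACGTCA, on both strands. The first was in 1 of 13 windows and in 4.95% of 35116 windows of all genes, the second in 1 of 13 and 1.85%. The EGR motif GCGGGGGCG or CGCCCCCGC was in 3 windows, of DUSP2, SPRY1 and SPRY2, against 5.07% of all. The ETS core CCGGAA or TTCCGG was in 2, of SPRY1 and SPRY2, against 17.2%. The 2 windows below are shown because they hold the response elements, in capitals, and each runs to 10 bases into the transcript. The DUSP1 element starts 125 bases before the start. The SPRED2 element starts 6 bases before an internal start of that gene.
DUSP1, chr5:172771186-172771445, minus strand: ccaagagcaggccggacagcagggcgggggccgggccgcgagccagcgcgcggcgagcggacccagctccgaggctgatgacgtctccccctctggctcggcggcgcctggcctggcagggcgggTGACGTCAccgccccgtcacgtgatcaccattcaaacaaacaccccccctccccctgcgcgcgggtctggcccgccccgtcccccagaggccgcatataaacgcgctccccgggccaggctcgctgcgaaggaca
SPRED2, chr2:65366769-65367028, minus strand: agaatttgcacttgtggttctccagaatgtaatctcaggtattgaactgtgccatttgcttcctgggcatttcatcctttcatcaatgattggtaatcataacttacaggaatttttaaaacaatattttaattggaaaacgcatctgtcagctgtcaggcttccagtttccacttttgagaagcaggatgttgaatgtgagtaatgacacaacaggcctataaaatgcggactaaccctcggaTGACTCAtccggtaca
In the authors' deposited TPA table DUSP1, with the cyclic AMP response element, was at 0.26 and SPRED2, with the TPA element, at -0.044, and neither was called.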

How the data were processed

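RNA sequencing of 24 libraries was used through 2 tables of the authors' own comparisons. The authors deposited log2 fold changes with their unadjusted and adjusted p-values, per the file headers. Named without a role in the submitters' processing notes are the build GRCh38 and DESeq2 1.18.1, RSEM 1.3.0 and STAR 2.5.3a. Model, filters and shrinkage: not given in the sources used here. Depth is unknown and no count test was run. The labels call the replicates independent. The TPA table lists 58780 genes, 19417 with an adjusted p, and that of DMSO lists 13025 and 13007.

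Standard errors were computed as the fold change over the z-value of its p. The TPA minus DMSO test used the summed squared standard errors and a two-sided normal p with Benjamini-Hochberg adjustment. Alternatives changed the adjustment, threshold and scaling of z. All genes of the set were named, and from each list the 3 smallest unadjusted p-values per table and any called gene. Genes that the rule names but the text omits are not reported here. The set and lists were chosen with earlier results of these data known. The identifiers in all 71805 rows of the tables, where a gene can appear in both, matched GENCODE release 29. Python 3.11.15 was used with pandas 2.3.3, scipy 1.17.1 and numpy 2.4.6.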

Additional observations from a re-analysis of the deposited data

How the results depend on the processing

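No paired analysis was possible because these files hold no value per library; left-out replicates, other normalizations and other tools were not run for the same reason, and what depth limits could not be assessed. An adjusted p under 0.01, or a minimum change of 1 on the log2 scale, can only remove calls. No ERK feedback gene was called at the main threshold, so neither of these alternatives could test that result. The adjustment over genes of both tables leaves out DUSP1 and SPRY2, which have no DMSO value. No ERK feedback gene was called in TPA or DMSO with that adjustment. The same held with an adjustment over every gene with a p-value, and at adjusted p under 0.1. The exception was a rescaling of z by its robust SD over every gene with a p-value, which called 2 genes in TPA, DUSP2 and DUSP4 (adjusted p = 0.0202 and 0.0141), among 2383 of all genes. That SD, 0.50, includes 2910 genes at 1 shared fold change and the genes without an adjusted p; over genes with an adjusted p, a choice made after seeing the data, it was 0.84 and called 0 of the ERK feedback genes and 113 of all. In DMSO every gene with a p-value also has an adjusted p, so both SDs are 1 and the same value, 0.75. The rescaling called 109 of all genes there.

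Over all genes the 22 calls in TPA became 8 with genes of both tables, 10 at adjusted p under 0.01, 39 under 0.1 and 14 with the minimum fold change, and the 14 calls in DMSO became 8 under 0.01 and 3 with the minimum fold change. The 0 differences between TPA and DMSO became 24 of all genes and 0 of the ERK feedback genes with rescaled z, and stayed 0 for differences of z-values. The adjusted p of the 8 genes' differences was 0.882 or higher in all 16 combinations of gene and alternative.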
